A study of Mus musculus with 24 samples.

Results

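Immunoglobulin gene segments are the germline pieces from which the heavy, kappa and lambda chains of antibodies are joined. They were read out of an RNA-seq survey of mouse aorta by name, as the rows of the deposited table that begin with Ighv, Ighd, Ighj, Igkv, Igkj, Igkc, Iglv, Iglj or Iglc. This found 231 of 32561 rows. The heavy chain held 123 of them, of which 120 were variable (V) segments, 2 were joining (J) segments and 1 was Ighd, the constant gene of IgD, which the pattern also takes. The kappa chain held 101 rows, 100 V segments and the constant gene Igkc, and the lambda chain held 7 rows, 3 V segments and 4 constant genes. Of the 231 rows, 27 are annotated as V pseudogenes. A level of at least 1 TPM, the deposited unit of transcript abundance, in at least 4 of 24 libraries was reached by 128 rows, 61 heavy, 61 kappa and 6 lambda. The control libraries alone would have passed only 28, so most of these rows entered the test through libraries in which they are high.

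A B lymphocyte makes its antibody by joining a V segment, in the heavy chain also a D segment, and a J segment next to a constant gene. Each B cell clone therefore transcribes its own V segments, and the V segments of a tissue reflect which clones are present. B cells that have not met antigen carry IgM and IgD on their surface and hold little immunoglobulin RNA. Plasma cells, the antibody-secreting form, hold very large amounts of it and express the J chain (Jchain), which links IgA and IgM into polymers.

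All mice were on the 129S1/SvlmJ background, each group had 4 animals, and each aorta gave 1 library. Control mice had healthy renal function and were heterozygous for the Klotho mutation (+/Kl), except for 1 of the 4 Bmp2+/+ control males, which was +/+. Kl/Kl mice were homozygous for it and had renal disease. Both sexes were studied with intact Bmp2 (Bmp2+/+). A further pair of male groups carried the ∆UCS allele of Bmp2 on both chromosomes, in the controls as in the Kl/Kl mice. The animals were 44 to 48 days old in the Bmp2+/+ male groups, 45 to 53 in the female groups and 45 to 48 in the ∆UCS groups. Whole dissected aortas were used, so blood and adjoining tissue can add to the RNA.

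For 2 libraries, Xist, an RNA of the inactive X, and Ddx3y, a gene of the Y, were at the level of the sex opposite to the label. These were the libraries labelled Bmp2+/+ Kl/Kl male replicate 1 (Xist 11.4 TPM, Ddx3y 0.0138 TPM) and Kl/Kl female replicate 2 (Xist 0.0281 TPM, Ddx3y 4.81 TPM). Spp1, the osteopontin gene, was 0.459 and 0.347 TPM in them, against 35.3 to 286 TPM in the other 10 Kl/Kl libraries and 0.199 to 5.54 TPM in the 12 controls. Results are therefore given over the other 22 libraries. When the 2 were kept under their labels, no gene of the 9933 passed limma's threshold in any of the 3 Klotho comparisons, ∆UCS males included, so every gene called below is a call over the 22 libraries that was lost with all 24. Values with all 24 stand beside the totals, the counts and the main genes. Libraries held an estimated 20593000 to 61109000 reads in genes. Over the 22 libraries, the smooth muscle genes that mark an aortic wall summed to 103 to 644 TPM, adipocyte genes to 933 to 2105 TPM and airway epithelium genes to 7.13 to 3680.2 TPM. Values were divided by genomic span, introns included, so each sum is compared between libraries. Set beside each other, the sums do not give the make-up of the tissue.

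Many segments are close copies of each other. In GENCODE M21 (GRCm38), whose genome is that of C57BL/6J and not of 129S1/SvlmJ, all 231 rows had a transcript. The 223 V segments were a median of 94.6% identical to their closest other member, 104 were at least 95% identical to it, and 138 held at least 1 stretch of 75 bases that another member also holds. Values of single V segments are therefore uncertain, since reads of close copies can be assigned to each other. The last 60 coding bases of the 6 kappa V segments that passed the test below are shown because they end at the join that each B cell makes. Capitals mark the codons for tyrosine, tyrosine and cysteine, the last framework residues before the hypervariable loop formed at the join.
Igkv15-103: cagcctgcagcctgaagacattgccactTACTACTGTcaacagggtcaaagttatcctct
Igkv13-85: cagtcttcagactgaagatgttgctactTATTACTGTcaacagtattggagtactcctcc
Igkv4-57: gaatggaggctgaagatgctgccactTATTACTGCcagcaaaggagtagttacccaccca
Igkv4-68: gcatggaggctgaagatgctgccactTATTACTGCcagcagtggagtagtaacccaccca
Igkv8-30: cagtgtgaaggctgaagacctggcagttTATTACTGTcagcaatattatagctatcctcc
Igkv12-46: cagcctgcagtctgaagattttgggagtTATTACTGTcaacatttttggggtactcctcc

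Igkv15-103, the only Igkv15 row of the table, was 74.8% identical to its closest member and shared no stretch of 75 bases with any. Igkv13-85 and Igkv4-68 were each 96.3% identical to theirs, Igkv12-46 95.4%, Igkv4-57 94.9% and Igkv8-30 92.6%. The lambda constant genes are shown because their levels went apart between libraries. Over their last 120 coding bases Iglc3 differed from Iglc2 at 2 positions and Iglc1 at 38, marked in capitals.
Iglc2: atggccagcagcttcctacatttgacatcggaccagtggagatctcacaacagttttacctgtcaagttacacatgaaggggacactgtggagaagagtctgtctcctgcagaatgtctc
Iglc3: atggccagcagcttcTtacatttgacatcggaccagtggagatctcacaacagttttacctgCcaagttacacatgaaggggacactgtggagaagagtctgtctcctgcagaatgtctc
Iglc1: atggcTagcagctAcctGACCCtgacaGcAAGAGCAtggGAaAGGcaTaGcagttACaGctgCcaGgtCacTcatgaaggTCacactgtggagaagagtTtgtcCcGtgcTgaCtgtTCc

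The heavy J segments are shown because they are the shortest rows, which limits how well they are measured. Capitals mark the codons of the tryptophan-glycine motif that J segments carry.
Ighj1: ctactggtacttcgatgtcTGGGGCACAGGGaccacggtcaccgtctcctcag
Ighj4: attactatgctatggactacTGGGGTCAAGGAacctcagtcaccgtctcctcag
Ighj4 spans 54 bases, and its highest level, 34.9 TPM in Bmp2+/+ Kl/Kl male replicate 2, stood for 54 estimated reads. Igkc spans 532 bases and had 497 to 30198 estimated reads per library.

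The first comparison asks how immunoglobulin RNA differs between Kl/Kl and control aortas of Bmp2+/+ males. Kappa rows summed to 2609, 224 and 829 TPM in Kl/Kl replicates 2, 3 and 4 and to 197, 46.1, 517 and 80.8 TPM in controls 1 to 4. Replicates 2 and 4 lay above every control, replicate 3 lay below control 3, and the groups overlapped. The means were 1221 ± 1239.8 TPM (SD, n = 3) and 210.3 ± 215 TPM (SD, n = 4), a difference of 2.48 between mean log2 totals, or 1.61 to 3.38 with 1 of these libraries left out. The library labelled Kl/Kl replicate 1 had 458 TPM, inside the range of the controls, and with it the difference was 2.29. A sum over the members is a description, so no test is given for it. In bulk tissue, more B lineage cells and more immunoglobulin RNA per cell cannot be told apart.

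**Figure D1:**
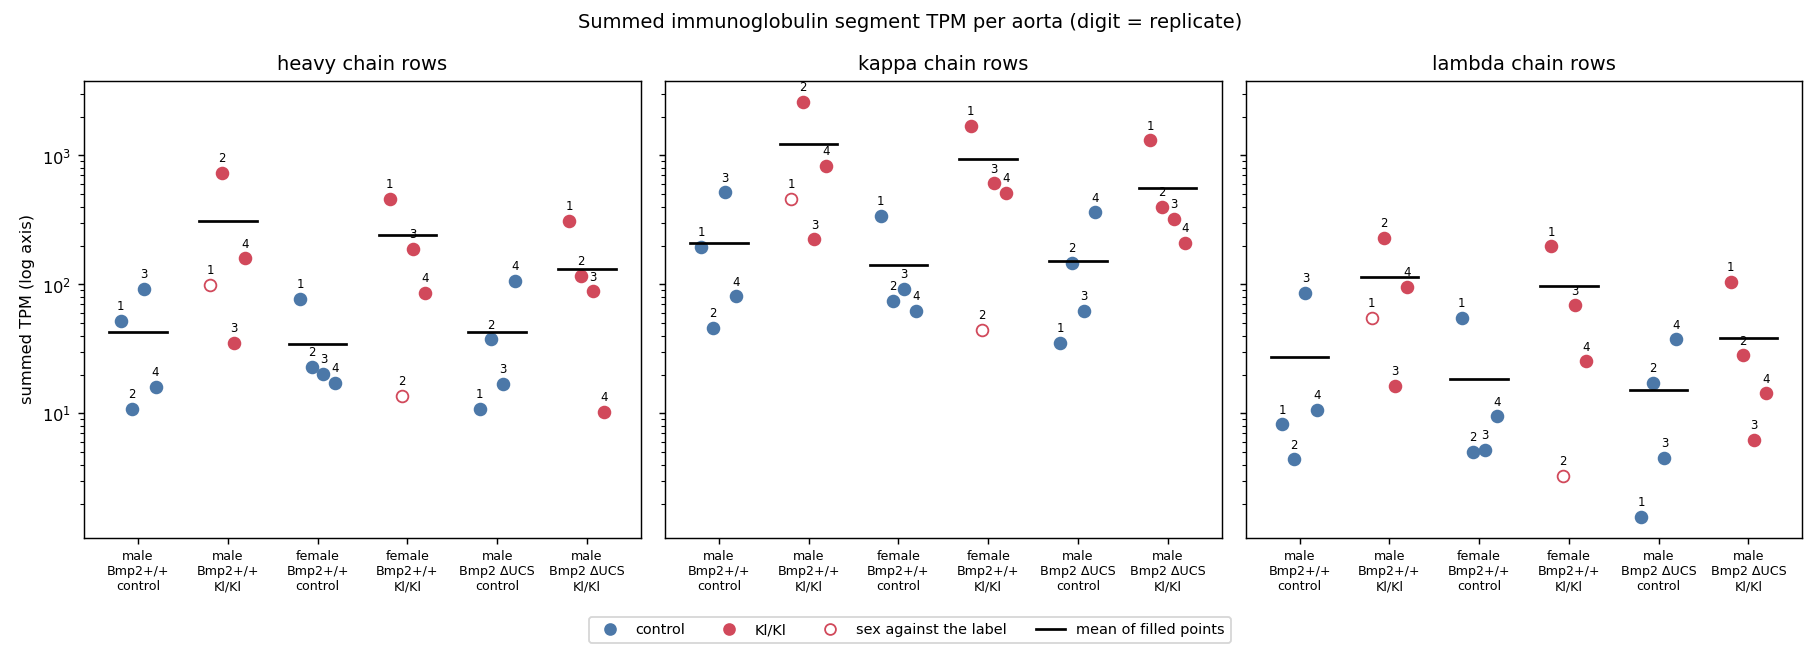
Summed TPM of the heavy, kappa and lambda rows in each of 24 aortas, on a log axis, by group, with the replicate number above each point and a bar at the mean of the filled points. Open points are the 2 libraries whose Xist and Ddx3y go against the label. Female Kl/Kl replicates 1, 3 and 4 lie above the 4 female controls for kappa rows, at 513 to 1703 TPM against 62.4 to 338 TPM, while both pairs of male groups overlap.

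Heavy rows summed to 731, 35.0004 and 159 TPM in Kl/Kl males 2, 3 and 4 and to 51.9, 10.9, 93.01 and 16.03 TPM in controls 1 to 4. Lambda rows summed to 229, 16.3 and 95.9 TPM in the same Kl/Kl males and to 8.22, 4.39, 85.9 and 10.7 TPM in the controls. In both chains Kl/Kl replicate 3 lay among the controls. The library labelled Kl/Kl replicate 1 had 99.2 TPM of heavy rows, above all 4 controls, and 54.6 TPM of lambda rows, inside their range. The difference between mean log2 totals was 2.35 for heavy and 2.28 for lambda rows. With that library it was 2.18 for both. Scaled to the library's reads (CPM) and not divided by length, heavy rows were 182 in control 3 and 158 in Kl/Kl replicate 4. Lambda rows were then 63.3 and 52.1, so control 3 lay above replicate 4 in both chains. Kappa rows were 291 and 418. The difference between mean log2 CPM totals over the 22 libraries was 1.92 for heavy and 2.04 for lambda rows. This measure gives more weight to long rows such as Ighd.

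Of the 128 segments tested in Bmp2+/+ males, limma called 1 higher and 0 lower, where 1.04% of all 9933 genes were called higher and 0.0604% lower. All 128 had a positive log2 change, with a median of 1.01, against a median of 0.09 over all genes tested, of which 61.3% were positive. Most of the 128 entered the test through libraries in which they are high, which favours positive changes. They also varied together over the 22 libraries, with a median correlation of 0.71 between pairs and 100% of 8128 pairs above 0. The 128 are not separate observations, here or in the comparisons below. In 7 of the 128 segments, or 5.47%, every Kl/Kl library lay above every control, against 5.73% of all genes tested, a share near the background. At an unadjusted p under 0.05 limma had 27 segments (21.1%), against 11.04% of all genes. With all 24 libraries as labelled it called 0 segments and 0 of all genes, with 31 segments (24.2%) at an unadjusted p under 0.05, against 6.07% of all genes. There 3 segments (2.34%) were without overlap, against 0.775% of all genes. Under median-of-ratios scaling, which sets the median of all genes near 0 (−0.02), 2 segments were called higher, against 1.49% of all genes (0.252% lower), and the segments' median was 0.85. Limma voom on estimated reads called 3 of 155, against 1.38% (0.135% lower), and the median log2 change was 1.87 over the 155 and −0.03 over all genes. Without a filter limma called 0 of 231, against 0.384% (0.0123% lower), with 33 rows (14.3%) at an unadjusted p under 0.05, against 8.69% of all genes. Without Kl/Kl replicate 3, 22 segments (17.2%) were called, against 4.13% of all genes. Without Kl/Kl replicate 2 or 4 the count was 0, against 0.755% and 0.362% of all genes, and without control replicate 1, 2 or 4 it was 0, against 1.07%, 0.705% and 0.735%.

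The segment called was Igkv15-103 (ENSMUSG00000076523, mm39 chromosome 6, 68414424 to 68414909, plus strand), a kappa V gene. It was 77.8, 4.54 and 61.4 TPM in Kl/Kl replicates 2, 3 and 4 and 0.263, 1.03, 3.19 and 0.191 TPM in controls 1 to 4. The groups did not overlap, and replicates 2 and 4 stood far above replicate 3. The log2 change was 4.04 (SE 0.90, limma adjusted p = 0.0304). The library labelled Kl/Kl replicate 1 had 2.47 TPM, and with all 24 libraries the change was 3.21 (limma adjusted p = 0.589). Without control replicate 1, 2 or 4 the limma adjusted p was 0.0857, 0.078 and 0.101, and without Kl/Kl replicate 2 or 4 it was 0.137 and 0.962. In Kl/Kl replicate 4 Igkv15-103 held 20.8% of the reads of kappa V segments (95% exact binomial interval 19.6% to 22.03%, 4381 reads).

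Of the kappa V segments Igkv15-103, Igkv10-96, Igkv6-32, Igkv8-30 and Igkv1-110 are described, taken by mean TPM over the 24 libraries. The libraries with the most kappa RNA weigh most in that mean, and it gives no order of levels between rows. Igkv6-32 was 104, 4.62 and 3.84 TPM in Kl/Kl males 2, 3 and 4 and 1.38, 0.165, 3.49 and 0.439 TPM in controls, a log2 change of 2.50 (SE 0.87, limma adjusted p = 0.245). Its Kl/Kl mean rests on replicate 2. Igkv10-96 was 41.7, 3.15 and 7.49 TPM in the same animals and 0.895 to 7.24 TPM in controls, so the groups overlapped. Igkv8-30 had a log2 change of 1.94 (SE 0.58, limma adjusted p = 0.15) and Igkv1-110 of 1.35 (SE 0.87, limma adjusted p = 0.598).

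Igkc (ENSMUSG00000076609, mm39 chromosome 6, 70703419 to 70703950, plus strand), which encodes the constant part of every kappa light chain, was 1709, 157 and 563 TPM in Kl/Kl males 2, 3 and 4. In controls 1 to 4 it was 126, 31.6, 366 and 54.1 TPM. Its log2 change was 2.26 (SE 0.90, limma adjusted p = 0.344), and the groups overlapped. It was 2.30 (limma adjusted p = 0.763) with all 24. Without Kl/Kl replicate 3 the change was 3.36 (limma adjusted p = 0.0339). Among the lambda constant genes Iglc1 was 92.7, 3.93 and 44.4 TPM in Kl/Kl against 2.48 to 17.2 TPM in controls. Iglc3 was 12.3, 5.59 and 20.6 TPM in Kl/Kl against 0.529 to 40.3 TPM in controls. The highest control for both was replicate 3. None of Iglc1, Iglc2 and Iglc3 passed the test, with log2 changes of 2.28, 1.27 and 1.13 (limma adjusted p = 0.466, 0.599 and 0.771).

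By the same rule Ighv2-9, Ighv9-3, Ighv5-6, Ighv14-3 and Ighv4-2, the last annotated as a pseudogene, are described of the heavy V segments. Ighv2-9 (ENSMUSG00000096638, mm39 chromosome 12, 113842716 to 113843161, minus strand) was 63.7, 1.10 and 7.93 TPM in Kl/Kl males 2, 3 and 4 and 5.90, 1.00, 3.36 and 0.727 TPM in controls 1 to 4. Replicate 3 lay among the controls again, and the log2 change was 1.56 (SE 0.95, limma adjusted p = 0.58), or 1.53 (limma adjusted p = 0.843) with all 24 libraries. The changes of Ighv9-3, Ighv5-6, Ighv14-3 and Ighv4-2 were 1.28, 1.45, 1.78 and 1.34, and none passed the test. Ighd followed another order of libraries, with 0.836, 2.58 and 10.4 TPM in Kl/Kl and 0.306, 0.310, 14.5 and 1.83 TPM in controls. Among the Kl/Kl males it was lowest in replicate 2, the library with the most Igkc. Its log2 change was 0.54 (SE 1.05, limma adjusted p = 0.905).

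The second comparison is that of Kl/Kl and control females. Kappa rows summed to 1703, 607 and 513 TPM in Kl/Kl replicates 1, 3 and 4 and to 338, 74.4, 92.99 and 62.4 TPM in controls 1 to 4. All 3 Kl/Kl libraries lay above all 4 controls. The means were 941 ± 661 TPM (SD, n = 3) and 142 ± 131 TPM (SD, n = 4), a difference of 2.87 between mean log2 totals, or 2.33 to 3.40 with 1 of these libraries left out. The library labelled Kl/Kl replicate 2 had 44.3 TPM, below all 4 controls, and with it the difference was 1.83. Heavy rows summed to 457, 187 and 85.7 TPM in Kl/Kl and to 77.2, 22.99, 20.2 and 17.3 TPM in controls, without overlap among these 7 libraries. Lambda rows summed to 197, 68.9 and 25.3 TPM in Kl/Kl and to 54.6, 5.07, 5.25 and 9.47 TPM in controls, and Kl/Kl replicate 4 lay below control 1. The library labelled Kl/Kl replicate 2 had 13.6 TPM of heavy and 3.30 TPM of lambda rows, below all 4 controls in both. With it the difference between mean log2 totals was 1.81 for heavy rows, against 2.74 without it, and 1.54 for lambda rows, against 2.55.

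Of the 128 segments limma called 5 higher and 0 lower in females, where 2.58% of all 9933 genes were called higher and 0.0201% lower. A positive log2 change was seen in 127, with a median of 1.33, against 0.29 over all genes tested, of which 79.1% were positive. Most of the 128 entered the test through libraries in which they are high, which favours positive changes and the shares that follow. In 65 of the 128 segments, or 50.8%, every Kl/Kl library lay above every control, against 28.2% of all genes tested. At an unadjusted p under 0.05 limma had 69 segments (53.9%), against 24.8% of all genes. With all 24 libraries as labelled it called 0 segments and 0 of all genes, with 42 segments (32.8%) at an unadjusted p under 0.05, against 15.1% of all genes. There 5 segments (3.91%) were without overlap, against 11.7% of all genes. Under median-of-ratios scaling (median of all genes −0.02) 8 segments were called higher, against 2.25% of all genes (1.54% lower), and the segments' median was 1.07. Limma voom on estimated reads called 7 of 155, against 2.07% (1.21% lower), and the median log2 change was 2.53 over the 155 and −0.03 over all genes. Without a filter 6 of 231 (2.6%) were called higher, a smaller share than the 2.99% of all genes (0.0399% lower). There 89 rows (38.5%) had an unadjusted p under 0.05 by limma, against 19.5% of all genes. The count was 25 (19.5%) without Kl/Kl female replicate 4, against 3.84% of all genes, and 10 (7.81%) without control female replicate 1, against 5.39%. All groups share the estimate of spread. Without Bmp2+/+ Kl/Kl males 3 and 2 the count was 24 (18.8%) and 10 (7.81%), against 6.07% and 3.07% of all genes. Without ∆UCS Kl/Kl males 1 and 4 it was 11 (8.59%) and 9 (7.03%), against 3.69% and 5.18%.

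**Figure D2:**
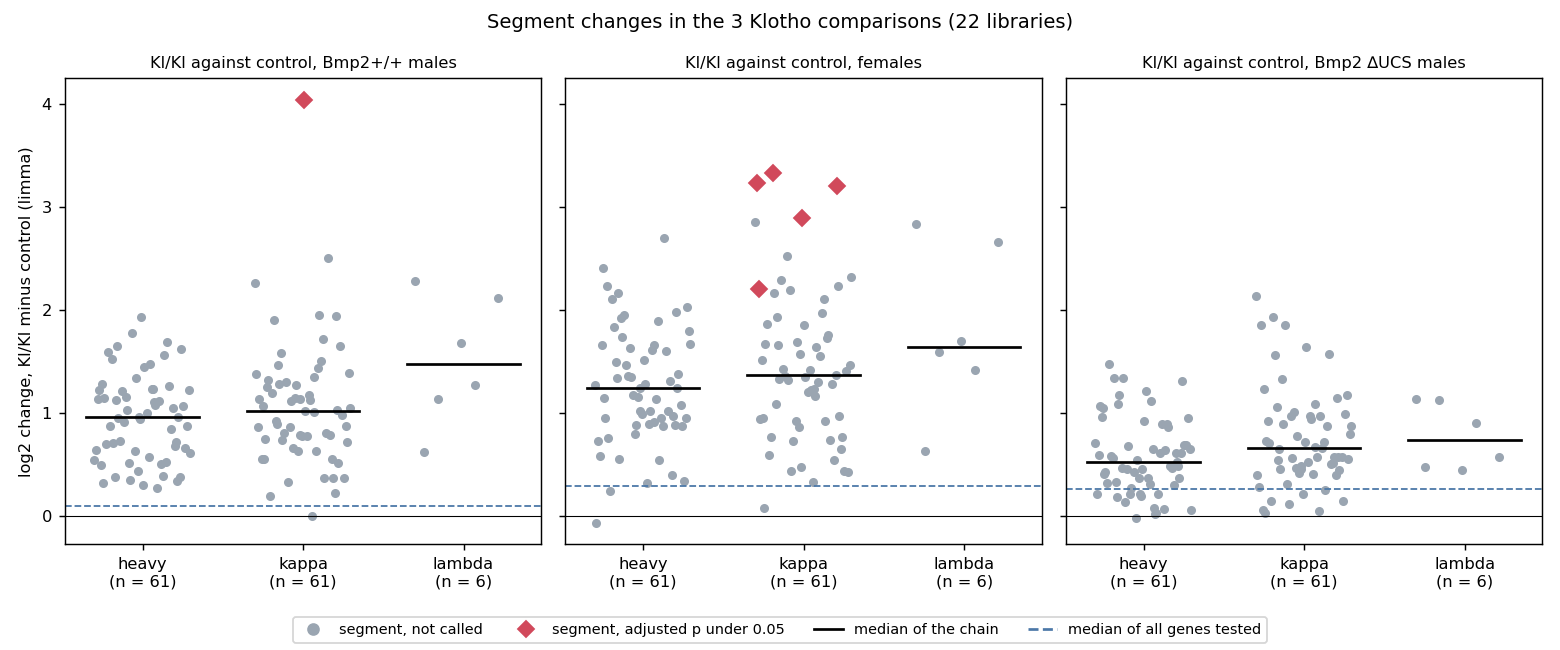
Log2 change (Kl/Kl minus control, limma over 22 libraries) of each segment past the TPM filter, by chain, in the 3 comparisons. Diamonds are segments with an adjusted p under 0.05, black bars the median of the chain and the dashed line the median of all 9933 genes. The 6 called segments are all kappa V segments, and nearly all points lie above 0.

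The 5 segments that rose in females were all kappa V genes on chromosome 6, on the minus strand. Igkv12-46 (ENSMUSG00000076564, mm39 69741507 to 69742006) was 43.1, 5.77 and 10.1 TPM in Kl/Kl replicates 1, 3 and 4 and 1.13, 0.534, 0.0872 and 0.377 TPM in controls 1 to 4. Its log2 change was 3.32 (SE 0.64, limma adjusted p = 0.00497). Igkv4-57 (ENSMUSG00000076556, 69552959 to 69553484) was 21.2, 6.36 and 10.6 TPM in Kl/Kl and 0.458, 0.545, 0.176 and 0.141 TPM in controls, a change of 3.23 (SE 0.50, limma adjusted p = 0.000564). Both were highest in replicate 1, the library with the most immunoglobulin RNA in this group. Without Kl/Kl replicate 1 the change of Igkv12-46 was 2.54 (limma adjusted p = 0.0537).

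Igkv8-30 (ENSMUSG00000076577, 70094045 to 70094604) was 21.6, 17.6 and 7.91 TPM in Kl/Kl and 1.06, 0.613, 0.700 and 0.433 TPM in controls, a log2 change of 3.20 (SE 0.57, limma adjusted p = 0.00248). Igkv4-68 (ENSMUSG00000076549, 69281818 to 69282389) was 5.75, 32.9 and 2.74 TPM in Kl/Kl and 0.317, 0.200, 0.577 and 0.0865 TPM in controls, a change of 2.89 (SE 0.59, limma adjusted p = 0.0078). It was highest in replicate 3, where it held 15.2% of kappa V reads (95% exact binomial interval 14.2% to 16.4%). Without that library the change was 1.97 (limma adjusted p = 0.0621). Igkv13-85 (ENSMUSG00000079543, 68907253 to 68907718) was 4.13, 3.79 and 6.82 TPM in Kl/Kl and 0.319, 0.0307, 0.140 and 0.614 TPM in controls, a change of 2.20 (SE 0.32, limma adjusted p = 0.000267). It had the smallest change and the smallest SE of the 5, and was highest in replicate 4. By limma voom on estimated reads its adjusted p was 0.0605.

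In the library labelled Kl/Kl female replicate 2, Igkv12-46, Igkv8-30, Igkv4-68 and Igkv13-85 were 0.242, 0.515, 0.117 and 0.195 TPM, inside the range of the controls, and Igkv4-57 had 0 estimated reads. With all 24 libraries the log2 changes of Igkv12-46, Igkv4-57, Igkv8-30, Igkv4-68 and Igkv13-85 were 2.43, 2.32, 2.36, 2.12 and 1.63, with limma adjusted p = 0.224, 0.186, 0.196, 0.239 and 0.15. In Bmp2+/+ males their changes were 1.19, 1.38, 1.94, 0.78 and 0.86, and none passed the test there.

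Igkc was 1109, 387 and 342 TPM in Kl/Kl females 1, 3 and 4 and 219, 46.9, 65.5 and 40.2 TPM in controls 1 to 4, without overlap among these. Its log2 change was 2.85 (SE 0.89, limma adjusted p = 0.0867). The library labelled Kl/Kl replicate 2 had 28.3 TPM, so the groups as labelled overlapped, and with all 24 libraries the change was 1.81 (limma adjusted p = 0.338). Without control female replicate 1 it was 3.38 (limma adjusted p = 0.0428), and without Bmp2+/+ Kl/Kl male replicate 3, which enters through the shared spread, the limma adjusted p was 0.0345. Iglc1 was 83.2, 34.9 and 9.94 TPM in Kl/Kl and 29.98, 1.20, 1.25 and 1.66 TPM in controls, so that control 1 lay above Kl/Kl replicate 4. Iglv1, a lambda V segment, was 49.2, 27.1 and 4.94 TPM in Kl/Kl and 21.02, 1.02, 0.437 and 0.663 TPM in controls, with control 1 again above Kl/Kl replicate 4. Iglc3 was 37.5, 1.81 and 3.89 TPM in Kl/Kl and 0.776 to 4.80 TPM in controls, with replicate 1 alone above all controls. None of these lambda rows passed the test.

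Among heavy V segments Ighv2-9 was 22.97, 18.4 and 6.12 TPM in Kl/Kl females and 0.931, 2.04, 2.94 and 0.191 TPM in controls, without overlap, with a log2 change of 2.70 (SE 0.94, limma adjusted p = 0.116). It was 2.00 (limma adjusted p = 0.327) with all 24 libraries. Ighv9-3 was 16.3, 5.52 and 2.93 TPM in Kl/Kl and at most 0.644 TPM in controls, a change of 2.41 (SE 0.86, limma adjusted p = 0.122). Of the 61 heavy rows limma called 0 in each of the 3 Klotho comparisons. Of all genes 1.04% were called higher in Bmp2+/+ males, 2.58% in females and 0.534% with ∆UCS. Under median-of-ratios scaling the heavy V segment Ighv1-19 was called in females (log2 change 0.997, limma adjusted p = 0.0466). The median log2 change of the heavy rows was 0.96 in Bmp2+/+ males, 1.24 in the females and 0.52 with ∆UCS. For the 61 kappa rows the medians were 1.02, 1.37 and 0.66, and for the 6 lambda rows 1.47, 1.64 and 0.73.

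The third comparison is that of Kl/Kl and control males with ∆UCS Bmp2, to which neither doubted library belongs. Kappa rows summed to 1309, 399, 322 and 209 TPM in Kl/Kl replicates 1 to 4 and to 35.3, 147, 62.1 and 361 TPM in controls 1 to 4. Control 4 lay above Kl/Kl replicates 3 and 4, and the other 3 controls lay below all 4 Kl/Kl libraries. The means were 559.5 ± 506 TPM and 152 ± 148 TPM (SD, n = 4 each), a difference of 2.04 between mean log2 totals, or 1.51 to 2.64 with 1 of these libraries left out. Heavy rows summed to 312, 116, 88.4 and 10.2 TPM in Kl/Kl and to 10.8, 37.5, 16.9 and 107 TPM in controls. Kl/Kl replicate 4 and control 1 were the lowest of the 8 and close to each other. Heavy rows were also scaled to the library's reads (CPM) and not divided by length. They were then at 12.7 in Kl/Kl replicate 4, above the 6.73 and 8.05 of controls 1 and 3. That sum gives more weight to Ighd, which spans 9721 bases against a median of 435 for heavy V segments. Heavy V segments alone were at 9.23 TPM in Kl/Kl replicate 4 and at 9.96 and 15.9 TPM in controls 1 and 3. Lambda rows summed to 104, 28.2, 6.22 and 14.3 TPM in Kl/Kl and to 1.58, 17.3, 4.52 and 37.4 TPM in controls.

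Limma called 0 of the 128 segments in ∆UCS males, where 0.534% of all 9933 genes were called higher and 0.111% lower. At an unadjusted p under 0.05 it had 16 segments (12.5%), a smaller share than the 16.8% of all genes. With all 24 libraries, where the 2 doubted ones enter through the shared spread, it called 0 segments and 0 of all genes, with 12 segments (9.38%) at an unadjusted p under 0.05, against 16.4% of all genes. The median log2 change was 0.57, against 0.26 over all genes tested, and 127 segments were positive, against 82.0% of all genes. In 0 segments did every Kl/Kl library lie above every control, against 8.17% of all genes tested. Median-of-ratios scaling also called 0, against 0.715% higher and 0.584% lower of all genes, and 114 of the 128 were positive under it. Limma voom on estimated reads called 0 of 155, against 0.709% higher and 0.497% lower, with a median log2 change of 1.22 over the 155 and 0.05 over all genes. Without a filter limma called 0 of 231, against 0.166% higher and 0.0369% lower. Without ∆UCS Kl/Kl replicate 4 the count was 2 (1.56%), against 1.6% of all genes. The smallest adjusted p was that of Igkv12-46, which was 8.36, 10.6, 6.03 and 0.865 TPM in Kl/Kl and 0.142, 0.459, 0.434 and 1.83 TPM in controls. Its log2 change was 1.93 (SE 0.59, limma adjusted p = 0.103), and replicate 4 lay below control 4.

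Igkc was 877, 263, 217 and 172 TPM in ∆UCS Kl/Kl males and 22.8, 96.8, 41.9 and 235 TPM in controls, a log2 change of 2.13 (SE 0.83, limma adjusted p = 0.205), with a limma adjusted p of 0.28 with all 24 libraries. Igkv15-103 was 9.60, 1.74, 0.663 and 0.845 TPM in Kl/Kl and 0.910, 0.512, 0.595 and 1.66 TPM in controls, a change of 0.72 (SE 0.82, limma adjusted p = 0.602). Ighv2-9 was 25.7, 2.01, 3.72 and 1.06 TPM in Kl/Kl against 0.659 to 7.35 TPM in controls. In these 3 rows replicate 1 was the highest Kl/Kl library.

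Whether the Klotho difference itself differed between groups was tested as an interaction. Limma called 0 of 128 segments and 0 of 9933 genes for females against Bmp2+/+ males, with 5 segments (3.91%) at an unadjusted p under 0.05, against 1.43% of all genes. For ∆UCS against Bmp2+/+ males it called 0 of 128 segments and 0 of 9933 genes, with 1 segment (0.781%) at an unadjusted p under 0.05, a smaller share than the 2.06% of all genes. That segment was Igkv15-103, whose difference in log2 change was −3.32. No difference between groups was therefore shown by the calls in 1 group and not in another. The 3 Klotho comparisons use different libraries but share the fit's estimate of spread.

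**Figure D3:**
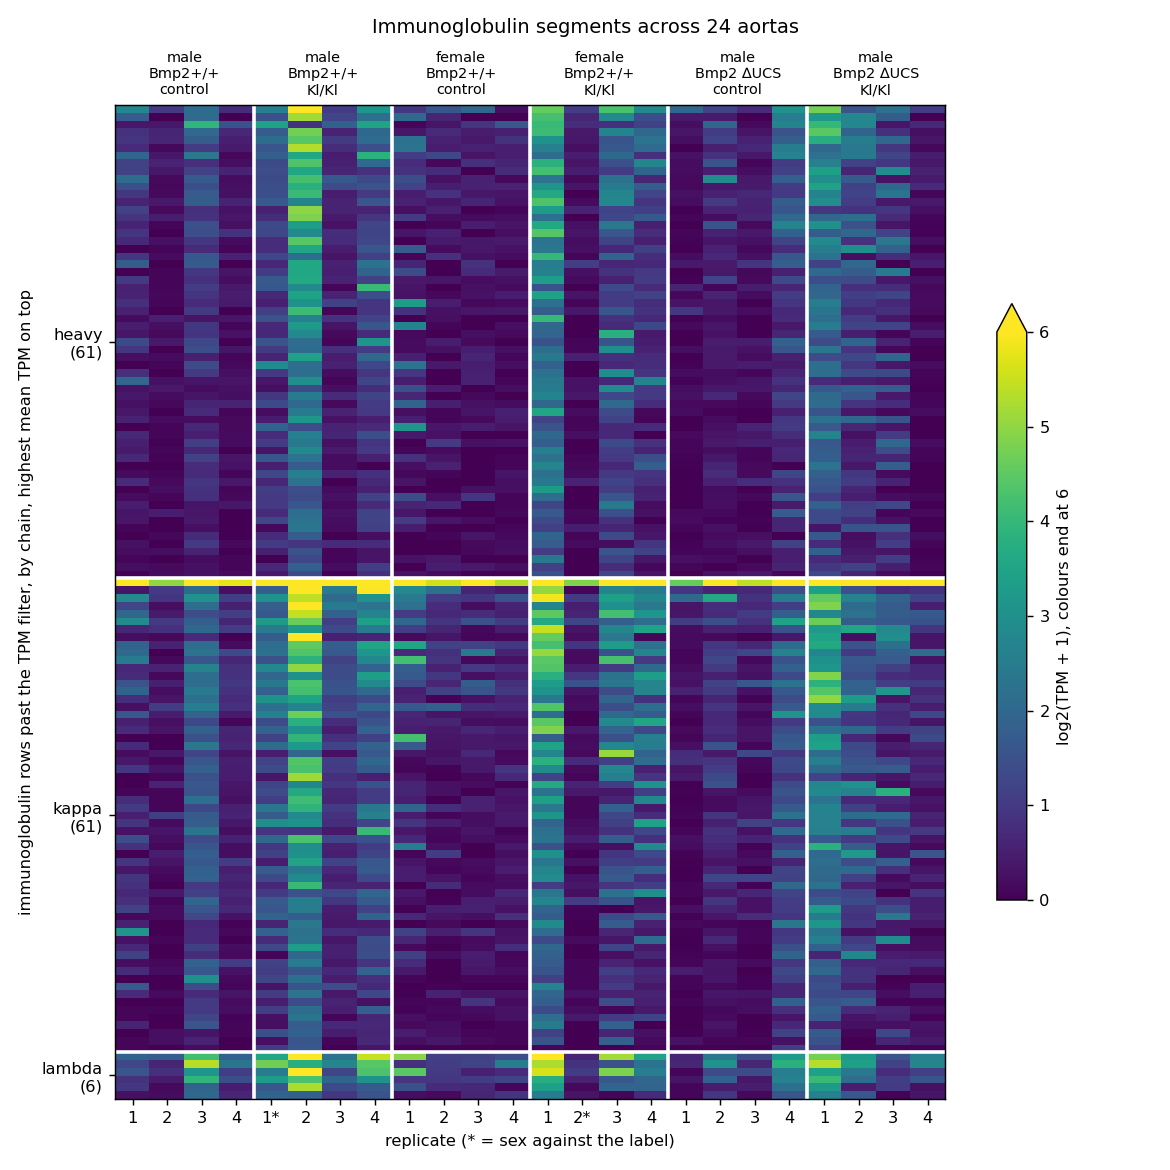
Log2(TPM + 1) of the 128 segments past the filter (rows, by chain, highest mean on top) in 24 aortas (columns, by group and replicate, an asterisk marking the 2 doubted libraries). Bmp2+/+ Kl/Kl male 2, Kl/Kl female 1 and ∆UCS Kl/Kl male 1 are the lightest columns, with kappa totals of 2609, 1703 and 1309 TPM, and the top kappa row is Igkc.

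Levels varied widely between animals of 1 group. Bmp2+/+ Kl/Kl male 2, Kl/Kl female 1 and ∆UCS Kl/Kl male 1, the lightest columns of the heat map, had the highest kappa totals of their groups. Controls were not uniformly low. Bmp2+/+ control male 3, control female 1 and ∆UCS control male 4 had kappa totals of 517, 338 and 361 TPM, against 35.3 to 197 TPM in the other 9 controls.

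The V segments in use differed from aorta to aorta. Of 120 heavy V segments 56 to 116 had reads in a library, and of 100 kappa V segments 53 to 99, over the 22 libraries. These counts went with the number of V reads and were not thinned to equal reads. The 56 heavy segments were seen at 195 heavy V reads and the 116 at 9784. For kappa, the 53 were seen at 391 reads and the 99 at 7300. Ighv2-9 was the leading heavy V segment in 12 of the 22, with no other leading in more than 2. The leading kappa V segment was one of 13, with Igkv10-96 in 4 libraries and Igkv1-110 and Igkv3-2 in 3 each. The leading segment's share of heavy V reads had group medians of 7.30% to 13.1%, and of kappa V reads of 7.82% to 16.6%. The largest shares were 30.2% for Ighv2-9 in ∆UCS control male 1 (95% exact binomial interval 24.5% to 36.1%, 253 reads) and 21.6% for Igkv10-96 in the same library (17.5% to 25.9%, 391 reads).

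Evenness of use was summarised by the inverse Simpson index, the number of equally used segments that would give the same concentration. For kappa V it was 15.004 to 37.4 in Bmp2+/+ Kl/Kl males and 18.8 to 48.7 in their controls, 20.7 to 30.6 in Kl/Kl females and 14.4 to 34.2 in controls, and 22.4 to 31.8 in ∆UCS Kl/Kl males and 12.4 to 33.6 in controls. The groups overlapped in each stratum. The index was not thinned to equal reads. By V family, Ighv1, with 63 of the 120 heavy V rows, held 23.5% to 56.4% of heavy V reads over the 22 libraries. Ighv2, with 8 rows, held 6.24% to 50.2%. Among kappa families Igkv4, with 29 of 100 rows, held 9.11% to 28.8%. It held 15.2% to 28.8% in Kl/Kl females and 9.11% to 18.2% in their controls, which overlapped.

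**Figure D4:**
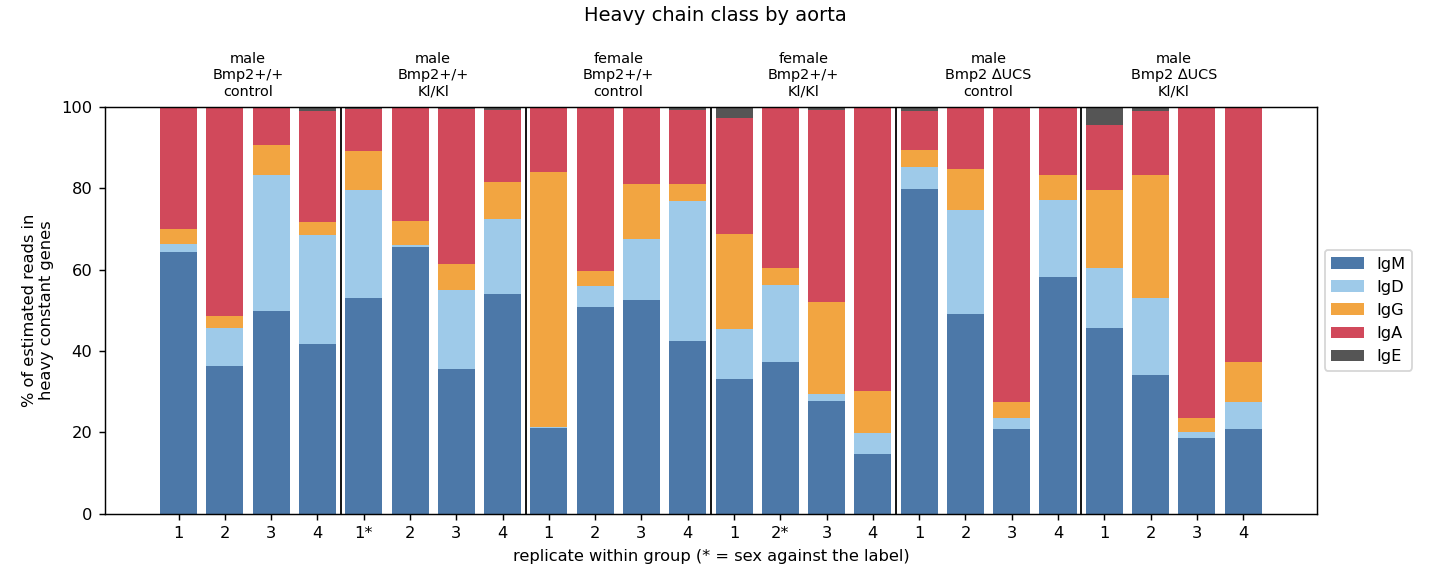
Share of estimated reads in heavy chain constant genes by class (IgM, IgD, IgG, IgA, IgE) in each of 24 aortas, as stacked bars from 0 to 100%. Shares are of reads and not divided by gene length. The mixture differs between animals of 1 group, from 9.57% to 72.5% IgA among the ∆UCS controls.

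The heavy chain constant genes, which set the antibody class, were described beside the segments. Of 8 listed genes 7 were in the table and 6 passed the filter: Ighm, Ighg1, Ighg2b, Ighg2c, Ighg3 and Igha. Limma called 1 of the 6 higher in females, against 2.58% of all genes, and 0 in each male comparison. In the order of comparisons above the medians were 1.27, 1.73 and 1.20. The gene called was Igha, the constant gene of IgA, the antibody class of mucosal surfaces. It was 64.3, 34.7 and 30.004 TPM in Kl/Kl females and 4.83, 3.85, 2.03 and 1.97 TPM in controls, a log2 change of 3.38 (SE 0.64, limma adjusted p = 0.00431). With all 24 libraries its limma adjusted p was 0.212. In Bmp2+/+ males it was 86.4, 9.13 and 18.05 TPM in Kl/Kl and 3.09 to 7.93 TPM in controls, without overlap (log2 change 1.94, limma adjusted p = 0.22). In ∆UCS males it was 29.01, 8.96, 26.6 and 10.1 TPM in Kl/Kl and 0.504 to 8.68 TPM in controls, also without overlap (log2 change 1.97, limma adjusted p = 0.0955).

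Ighm, the constant gene of IgM, was 263, 11.1 and 70.9 TPM in Bmp2+/+ Kl/Kl males and 2.83 to 50.5 TPM in controls, and the groups overlapped in all 3 strata. As a share of heavy constant reads, IgA was 28.5% to 69.9% in Kl/Kl females and 16.03% to 40.3% in their controls. In Bmp2+/+ males it was 17.8% to 37.98% in Kl/Kl and 9.38% to 51.5% in controls. IgG was 62.5% in control female 1, against 3.61% to 13.5% in the other female controls. Ighe, the constant gene of IgE, did not pass the filter and was chosen after its values were seen. It was 8.32 TPM in Kl/Kl female 1 and 10.7 TPM in ∆UCS Kl/Kl male 1, and at most 1.04 TPM elsewhere. Lambda constant genes held 3.11% to 21.8% of light chain constant reads, with overlap between Kl/Kl and controls in all 3 strata.

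**Figure D5:**
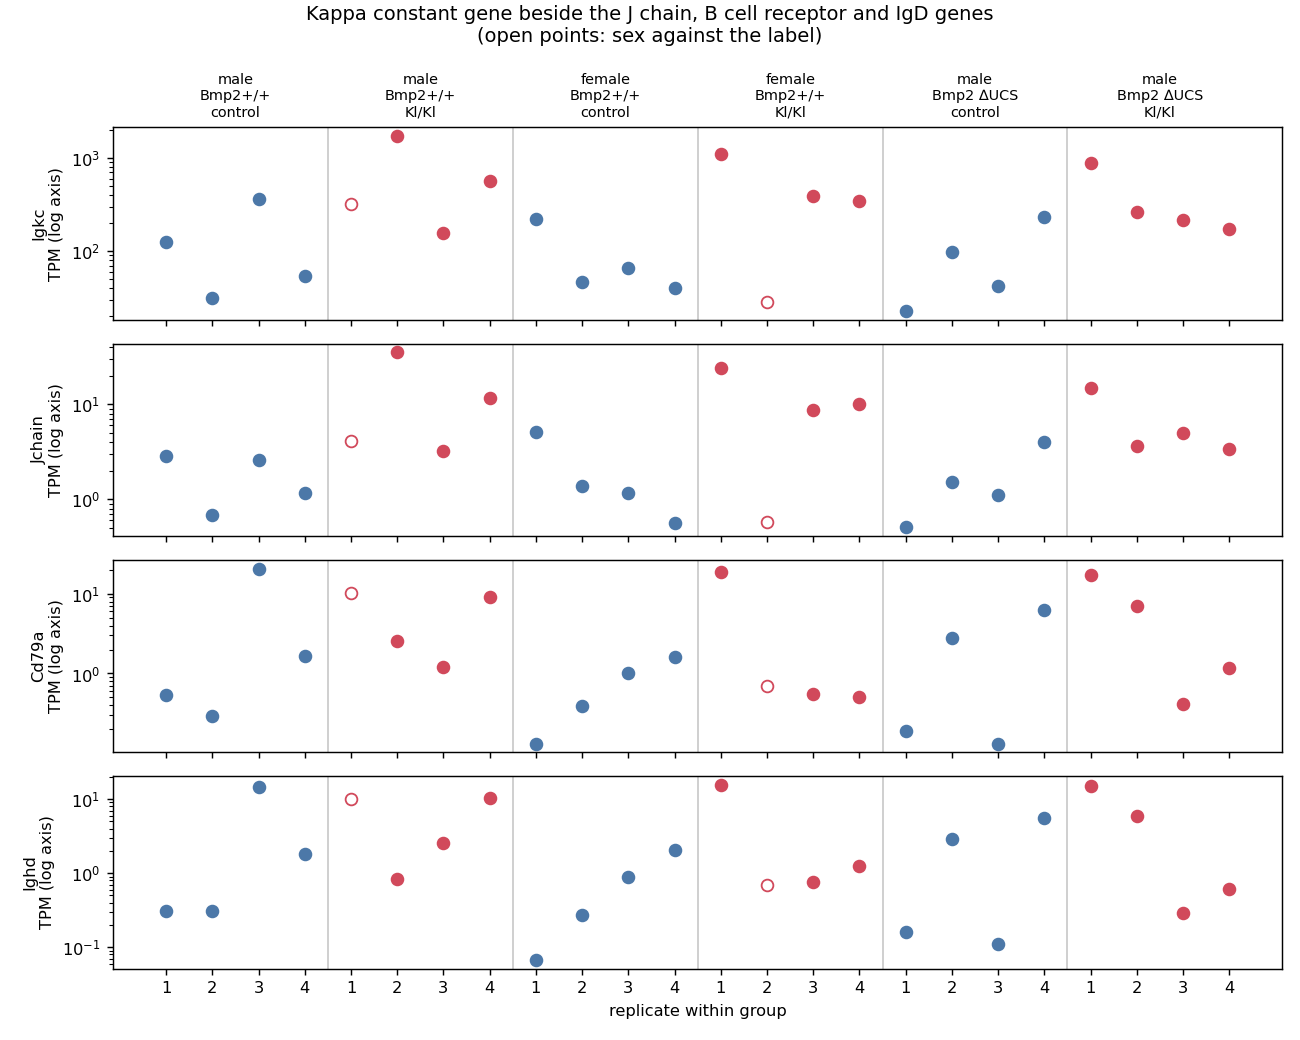
TPM of Igkc, Jchain, Cd79a and Ighd on log axes in the 24 aortas, by group and replicate, with open points for the 2 doubted libraries. Bmp2+/+ Kl/Kl male 2 is highest for Igkc and Jchain, at 1709 and 35.3 TPM, but has 2.54 TPM of Cd79a, against 20.6 TPM in Bmp2+/+ control male 3.

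Jchain, the plasma cell gene named above, was 35.3, 3.21 and 11.8 TPM in Bmp2+/+ Kl/Kl males 2, 3 and 4 and 0.687 to 2.89 TPM in controls, a log2 change of 2.13 (SE 0.64, limma adjusted p = 0.155). Without Kl/Kl replicate 3 the limma adjusted p was 0.00525. In females it was 24.1, 8.66 and 9.98 TPM in Kl/Kl and 5.06, 1.39, 1.16 and 0.567 TPM in controls, a change of 2.39 (SE 0.63, limma adjusted p = 0.0511). The changes with all 24 libraries were 1.91 (limma adjusted p = 0.689) in Bmp2+/+ males and 1.60 (limma adjusted p = 0.327) in females. Over the 22 libraries both pairs of groups were without overlap. In females the limma adjusted p was 0.00853 to 0.0497 without control female 1, Bmp2+/+ Kl/Kl male 2, 3 or 4, ∆UCS Kl/Kl male 1 or 4, or ∆UCS control male 4, each left out alone. It was 0.0367 under median-of-ratios scaling. In ∆UCS males Jchain was 14.8, 3.63, 5.03 and 3.35 TPM in Kl/Kl and 0.508 to 3.99 TPM in controls, a change of 1.40 (SE 0.59, limma adjusted p = 0.238). Of the 12 listed plasma cell genes 9 were tested, limma called 0 in each comparison, and their medians were 0.46, 0.72 and 0.85. In the same order 1.04%, 2.58% and 0.534% of all genes were called higher. With shares this small, a count of 0 in a short list, here or below, says little.

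Of 13 listed B cell genes 9 were tested and limma called 0 in each comparison, with medians of 0.05, 0.82 and 0.47, where all genes tested had 0.09, 0.29 and 0.26. Cd79a, a signalling chain of the B cell receptor, was 2.54, 1.21 and 9.21 TPM in Bmp2+/+ Kl/Kl males and 0.533, 0.290, 20.6 and 1.64 TPM in controls. In females it was 18.7, 0.559 and 0.511 TPM in Kl/Kl and 0.132 to 1.62 TPM in controls, so replicates 3 and 4 lay among the controls although their Igkc lay above them. Summed over the list, B cell genes were 9.16 to 42.2 TPM in Bmp2+/+ Kl/Kl males and 2.19 to 84.9 TPM in controls. They were 6.16 to 88.1 and 1.22 to 9.33 TPM in the Kl/Kl and control females, and 4.15 to 86.5 and 1.31 to 28.6 TPM in the ∆UCS groups.

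Some lymphoid genes were high in single libraries. Rag1, which cuts the DNA where V, D and J segments are joined in developing lymphocytes, was 27.2 TPM in Bmp2+/+ control male 1 and 27.96 TPM in ∆UCS Kl/Kl male 1, and at most 1.23 TPM in every other library. Trbc2, a T cell receptor constant gene, was 119 and 290.2 TPM in the same 2 libraries, where Dntt, which adds bases at the joins, was 4.06 and 4.45 TPM. T cell genes summed to 5.46 to 40.2 TPM in Bmp2+/+ Kl/Kl males and 2.25 to 272 TPM in controls. The sums were 5.33 to 104 and 2.48 to 12.96 TPM in Kl/Kl and control females, and 4.76 to 696 and 3.70 to 45.1 TPM in the ∆UCS groups. Limma called 0 of 11 tested T cell genes in each comparison. All 11 had a negative log2 change in Bmp2+/+ males (median −1.01). In females and ∆UCS males all 11 were positive, with medians of 0.66 and 0.95. The part of these cells in the segments' values was not tested.

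Of 8 listed factors that attract or sustain B cells 6 were tested and limma called 0 in each comparison, with medians of 0.43, 1.43 and 0.94. Cxcl13, the B cell chemokine, was 23.7, 1.92 and 15.5 TPM in Bmp2+/+ Kl/Kl males and 0.482 to 6.88 TPM in controls (log2 change 1.92, limma adjusted p = 0.329). In females it was 11.9, 18.6 and 2.22 TPM in Kl/Kl and 0.759 to 1.77 TPM in controls, without overlap (log2 change 2.12, limma adjusted p = 0.118). The female change was 1.46 (limma adjusted p = 0.336) with all 24 libraries. Ccl21a, a lymphoid chemokine, was highest in ∆UCS Kl/Kl male 1 and Bmp2+/+ control male 3, at 471 and 359.6 TPM.

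Of 9 listed receptors and handlers of antibody 6 were tested. Limma called 3 higher in females and 2 in each male comparison. Of all 9933 genes 2.58% were called higher in females, 1.04% in Bmp2+/+ males and 0.534% in ∆UCS males. Fcgr3, a low affinity receptor for IgG, rose by 1.94, 2.20 and 1.28 on the log2 scale, and Fcer1g, the signalling chain it shares with other Fc receptors, by 1.95, 2.53 and 1.60. The third gene called in females was Fcgr2b, the inhibitory IgG receptor, named after its values were seen, by 1.47. None of these was called with all 24 libraries. Fcgr3 had limma adjusted p = 0.589, 0.15 and 0.157 there, and its changes were 1.42, 1.67 and 1.28. Macrophages express these receptors, and the macrophage list summed to 155 to 352 TPM in Bmp2+/+ Kl/Kl males and 22.3 to 72.7 TPM in controls. Fcgrt, the receptor that recycles IgG, had log2 changes of −0.13, −0.19 and 0.19, and none passed the test.

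Airway epithelium genes, which belong to no vessel wall, were also higher in some Kl/Kl groups. Over the 22 libraries limma called 2 of 9 in females, 2 in ∆UCS males and 0 in Bmp2+/+ males, and with all 24 it called 0 in each. Over the 22, 2.58%, 0.534% and 1.04% of all genes were called higher, in the same order. They summed to 2622 to 3680.2 TPM in Kl/Kl females and 288 to 1405 TPM in controls, and to 1061 to 2709.7 and 7.13 to 986 TPM in the ∆UCS groups, both without overlap. In Bmp2+/+ males they summed to 585 to 2801 TPM in Kl/Kl and 483 to 2007 TPM in controls, and Kl/Kl male 2, with the most Igkc, was the highest. Their part in the segments' values was not tested.

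The filter lay among low rows. Just inside it were the pseudogene Ighv1-2 and Igkv1-99, which reached 1.05 and 1.08 TPM in at least 4 libraries. Just outside were the pseudogene Ighv5-1 and Igkv12-89, which reached 0.98 and 0.964 TPM in as many. Igkv12-89 had 26.1 TPM in Bmp2+/+ Kl/Kl male 4 and at most 2.34 TPM elsewhere, so the filter left out a segment that was high in 1 animal.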

How the data were processed

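TPM values were deposited for every gene. Partek and mm39 are named for them in the submitters' processing notes, and the authors prepared directional polyA libraries, per the labels' protocols. How reads of several genes were shared out, and whether strand was used, is not given. Every column sums to 482073 TPM. Values were divided by genomic span, introns included, so rows are compared between libraries and not with each other. Reads were estimated from the floor of 0.0001 read per row. Of the immunoglobulin values of 0.5 to 20 reads, 47.0% lay within 0.05 of a whole number, against 60.5% for other genes of at most 800 bases. Intervals cover counting error only.

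The 9933 genes that reached 1 TPM in 4 of 24 columns were fitted on log2(TPM + 1) with limma 3.58.1 (lmFit, eBayes with trend) in R 4.3.3. Terms were the 6 groups and a library set, read from 2 spellings of library names. This scale understates the fold change of low genes. Per the labels, samples are separate animals, and 0 pairs of columns were identical. P-values are two-sided, adjusted by Benjamini-Hochberg over all genes, threshold 0.05. The procedure was tested on simulated data. Unused sample columns numbered 0. Members, gene lists, tests and the choice of 22 libraries were made with earlier results of these data known.

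Named rows were the light chain constant genes and Ighd, up to 5 called segments with the largest change in each comparison, and by mean TPM the 5 highest heavy V, 5 kappa V and 3 lambda V segments and the highest J segment. To these came 2 segments inside and 2 outside the filter, heavy constant genes past the filter, up to 4 genes of each other list, and Xist and Ddx3y. Alternatives were a pseudocount of 0.1, no filter, a filter at 5 TPM, median-of-ratios scaling, limma voom on estimated reads, no library set, each set alone, age added, a replicate block, only the groups compared, all 24 libraries, and leaving out each library.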

Additional observations from a re-analysis of the deposited data

Results flagged for a closer look

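Among 104 values by group that were examined, in groups of 4 libraries, 6 held a library far from the other 3. Chance gives about 1 in 20, so this count is near what chance gives. Values from the same library are not independent. In control female replicate 1, Ighv14-3 was 3.88 TPM, Iglc1 was 30.0 TPM and Iglv1 was 21 TPM, each above the other 3 control females. In Bmp2+/+ control male replicate 3, Ighv9-3 was 3.12 TPM and Iglc1 was 17.2 TPM. In ∆UCS Kl/Kl male replicate 1, Igkv1-110 was 24.2 TPM, above the other 3 libraries of its group. Groups of 3 libraries were not examined in this way.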

How the results depend on the processing

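The count of segments called in Bmp2+/+ males was 1 over 22 libraries (0.781%), where 1.1% of all genes were called in either direction. It was 0 with all 24 libraries and with median-of-ratios scaling or voom over all 24 (both chosen after seeing the data), where 0 of all genes were called. It was also 0 with age added, without a filter, with only the groups compared and in library set 1 alone, where 0.866%, 0.396%, 0.151% and 0.131% of all genes were called. It was 2 (1.56%) under median-of-ratios scaling, 3 (1.94%) with limma voom on estimated reads and 6 (4.69%) in library set 2 alone, against 1.74%, 1.52% and 1.58% of all genes. In set 2, 1 Kl/Kl male is left and is assumed to vary like the other groups. In females the count was 5 (3.91%), against 2.6% of all genes. It was 0 with all 24 libraries in the 3 versions, with 0 of all genes. It was 3 (8.33% of those tested) at a TPM of at least 5, 7 (4.52%) with voom and 8 (6.25%) under median-of-ratios scaling, against 3.48%, 3.28% and 3.79% of all genes. With only the groups compared it was 22 (17.2%) and in set 2 alone 44 (34.4%), against 6.24% and 9.69% of all genes. The difference in log2 kappa total between Kl/Kl and control females was 1.83 with all 24 libraries, against 2.87. Leaving out 1 library at a time gave 0 to 22 calls in Bmp2+/+ males, 4 to 25 in females and 0 to 2 in ∆UCS males, where 0.362% to 4.13%, 1.35% to 6.07% and 0.383% to 3.9% of all genes were called. The cause of these shifts was not tested, beyond the number of libraries. Both interactions gave 0 calls in every setting run, and 0 of the results changed direction.

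The limma adjusted p of Igkv15-103 in Bmp2+/+ males ran from 0.00116 to 1.0 over the alternatives, and those of the 5 segments in females from 2.17e-05 to 0.561. Same-numbered libraries did not deviate together, with correlations from −0.477 to 0.307, and a replicate block gave 1, 5 and 0 calls. Both checks used the replicate number, which need not mark a pair. Ages and neighbouring library names match other libraries, such as control female 2 with Kl/Kl female 3, both 53 days old. Control female 1 and Kl/Kl female 4, both 50 days old, match in the same way. Pairing of that kind was not tested. Set 1 holds no females and set 2 no ∆UCS males. At 500 bases 1 TPM stood for 11.5 to 28.3 reads, which limits the lowest V segments most.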
